A study of Mus musculus with 24 samples.

Results

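A set of 38 mouse genes of the interferon response and of MHC class I antigen presentation was followed in βTC3 cells, an insulinoma line from the Rip-Tag2 mouse model of pancreatic neuroendocrine tumours. The genes were listed by symbol from what is known of their function, with earlier results of these data already known. They were matched to 38 of the 46517 gene entries counted. Of them, 28 belong to the interferon response and 10 to the MHC class I pathway. After a filter on low counts 37 of the 38 were tested, among 14866 genes in all. Ifitm3, an antiviral membrane protein gene, was not tested, as it had 26 counts over 24 libraries and 0 counts in 10 of them.

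All cells carried the plasmid PB-31, in the miR-23b line with the miR-23b cluster (miR-23b, miR-27b and miR-24), in the miR-137 line with miR-137, and in the control line without an inserted miRNA. Doxycycline (DOX, 2 µg/ml) switches the inserted miRNAs on. Both miRNA lines were grown in 3 conditions, without DOX for 7 d, with DOX for 7 d, and with DOX for 7 d followed by 7 d without it (withdrawn). The control line was grown with 7 d of DOX and without DOX. Each of the 8 groups held 3 libraries from cells plated in triplicate, so p-values measure the spread between these libraries, which may be technical. The labels give neither a date nor a plate nor a run, so an effect of DOX and a batch that untreated cultures had in common cannot be told apart. A withdrawn control culture, or an untreated culture of the same age as the withdrawn ones, was not analysed here. The sources used here do not say whether a line is 1 clone or a pool.

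Interferons are secreted proteins that bind receptors on the cell surface and, through kinases, activate transcription factors. These factors bind interferon stimulated response elements in the promoters of interferon-induced genes, many of which encode antiviral proteins or sensors of foreign RNA. MHC class I molecules consist of a heavy chain and beta-2 microglobulin, and show peptides cut by the proteasome to cytotoxic T cells. NLRC5 is the transactivator of class I genes, TAP1 and TAP2 form the peptide transporter, and PSMB8, PSMB9 and PSMB10 replace the standard catalytic subunits in the immunoproteasome. In human islets, strong expression of MHC class I is a known feature of type 1 diabetes.

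The libraries held 15759849 to 24144737 reads counted in genes, and the 38 genes took 0.120% to 0.155% of them. Mir23b averaged 53.2 CPM of unscaled gene counts in DOX-treated miR-23b cells and at most 0.154 in the other groups. Mir27b and Mir24-1, the other loci of the cluster, averaged 85.5 and 104 CPM in DOX-treated miR-23b cells. Without DOX they averaged 0.481 and 0.641 CPM in the miR-23b line, against 0.0351 and 0.0518 CPM in the control line. The transcript that contains Mir137, Gm26871, averaged 123 CPM in DOX-treated miR-137 cells and at most 5.38 in the other groups. The summed level of 8 beta cell markers in DOX-treated miR-23b cells was 11331 to 11979 CPM, against 13820 to 17043 CPM in the other libraries. Summed levels of 8 leukocyte markers were 1.93 to 4.19 CPM, with Cd3e at 0 in 24 libraries, Adgre1 at 0 in 19 and Ptprc at 0 in 10. In the miR-23b line the leukocyte sum was 2.74 to 4.19 CPM with DOX, against 1.96 to 2.23 CPM without it. Most of this sum was a single gene, Cd68, which averaged 3.40 CPM with DOX and 1.93 CPM without. Each other leukocyte marker averaged at most 0.133 CPM in these groups. The sums of 5 fibroblast markers (2.30 to 4.52 CPM), 4 endothelial markers (0.0557 to 1.28 CPM) and 5 exocrine markers (0.140 to 1.27 CPM) were also low. The part of these differences in the results below was not tested. CPM are counts scaled to 1e6 per library, elsewhere with TMM, a correction for library composition. In such bulk samples fewer cells of a type and less RNA per cell cannot be told apart.

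Mature sequences of the induced miRNAs are shown from RefSeq (GRCm38.p6), 5′ to 3′, with the seed, bases 2 to 8, in capitals. They are shown because the seed is the part that pairs with target sites in mRNAs. miR-23b-3p is named only, and matches to its seed were not searched.
miR-27b-3p: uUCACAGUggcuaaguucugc
miR-24-3p: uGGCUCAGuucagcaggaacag
miR-137-3p: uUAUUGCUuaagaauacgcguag

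The 3 seeds differ from each other. In the longest annotated 3' UTR of each gene (GENCODE M21), the 7-base match to the seed of miR-27b-3p, ACTGTGA, occurred in 5 of 37 genes of the set with an annotated 3' UTR (13.5%), against 19.4% of 13000 tested genes. The match for miR-24-3p, CTGAGCC, occurred in 7 (18.9%), against 21.4% of tested genes. The match for miR-137-3p, AGCAATA, occurred in 3 (8.11%), against 11.0%. Each share was thus below that of all genes, and a match is a description, not a site shown to be used. The windows below come from genes described further on, with the seed match in capitals.
Oas2, miR-24-3p match on chromosome 5: caagtaaggCTGAGCCttttttctg
Parp14, miR-24-3p match on chromosome 16: acagcaccaCTGAGCCaatggggct
Parp14, further miR-24-3p match: ctgtgtgaaCTGAGCCcccaaggag
Ifih1, miR-27b-3p match on chromosome 2: gctcctgtcACTGTGActaccacac
Rsad2, miR-27b-3p match on chromosome 12: gtggattttACTGTGAatcccacat
B2m, miR-137-3p match on chromosome 2: agatagctgAGCAATAaatcttcaa

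Promoters from RefSeq (250 bases before to 50 after each start) were available for 30 of the 38 genes. The core of the interferon stimulated response element was searched on both strands as GAAA, any 2 bases and GAAA again, so a match on the minus strand reads TTTC, any 2 bases and TTTC. It was found in 12 of the 30 genes (40.0%), against 3.99% of all 27025 genes in the table and 3.44% of all 32851 promoters. The gamma activated site, searched as TTCNNNGAA on both strands, was found in 8 of the 30 (26.7%), against 9.55% of all genes. Windows around the response element core are shown for 5 genes described below, with the match in capitals, and each is read along the gene's strand. They carry the motif that is known to bind interferon-activated transcription factors.
Ifit1, chr19:34640775-34640804, plus strand: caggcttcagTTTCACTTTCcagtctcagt
Isg15, chr4:156200865-156200894, minus strand: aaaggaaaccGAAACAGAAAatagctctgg
Rsad2, chr12:26456553-26456582, minus strand: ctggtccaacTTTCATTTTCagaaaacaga
Ifih1, chr2:62646206-62646233, minus strand: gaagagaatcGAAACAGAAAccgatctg
B2m, chr2:122147538-122147567, plus strand: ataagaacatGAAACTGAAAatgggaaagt

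The match begins 104 bases before the annotated start in Ifit1, 66 in Isg15, 120 in Rsad2 and 139 in B2m. In Ifih1 it lies within the transcript. Isg15 holds 3 overlapping matches, and Ifit1 and Ifit3 hold 2 each.

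Levels per transcript length, read from the authors' TPM values and averaged over 24 libraries, differed widely among the 38 genes. The highest were Tapbp, the tapasin gene for peptide loading (129 TPM), the class I heavy chain gene H2-D1 (125 TPM), the secreted glycoprotein gene Lgals3bp (89.9 TPM), the transcription factor gene Irf1 (88.4 TPM) and the heavy chain gene H2-K1 (67.4 TPM). The lowest were Ifitm3 (0.0471 TPM), Ifit1 (0.121 TPM), Ifit3 (0.596 TPM) and Oas3 (1.48 TPM). Of the 37 tested genes, 23 had their lowest group mean in DOX-treated miR-23b cells, while 13 had their highest in the control line without DOX and 12 in the control line with DOX. The matching shares of all tested genes were not counted, so whether these counts are particular to the set was not tested.

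**Figure D1:**
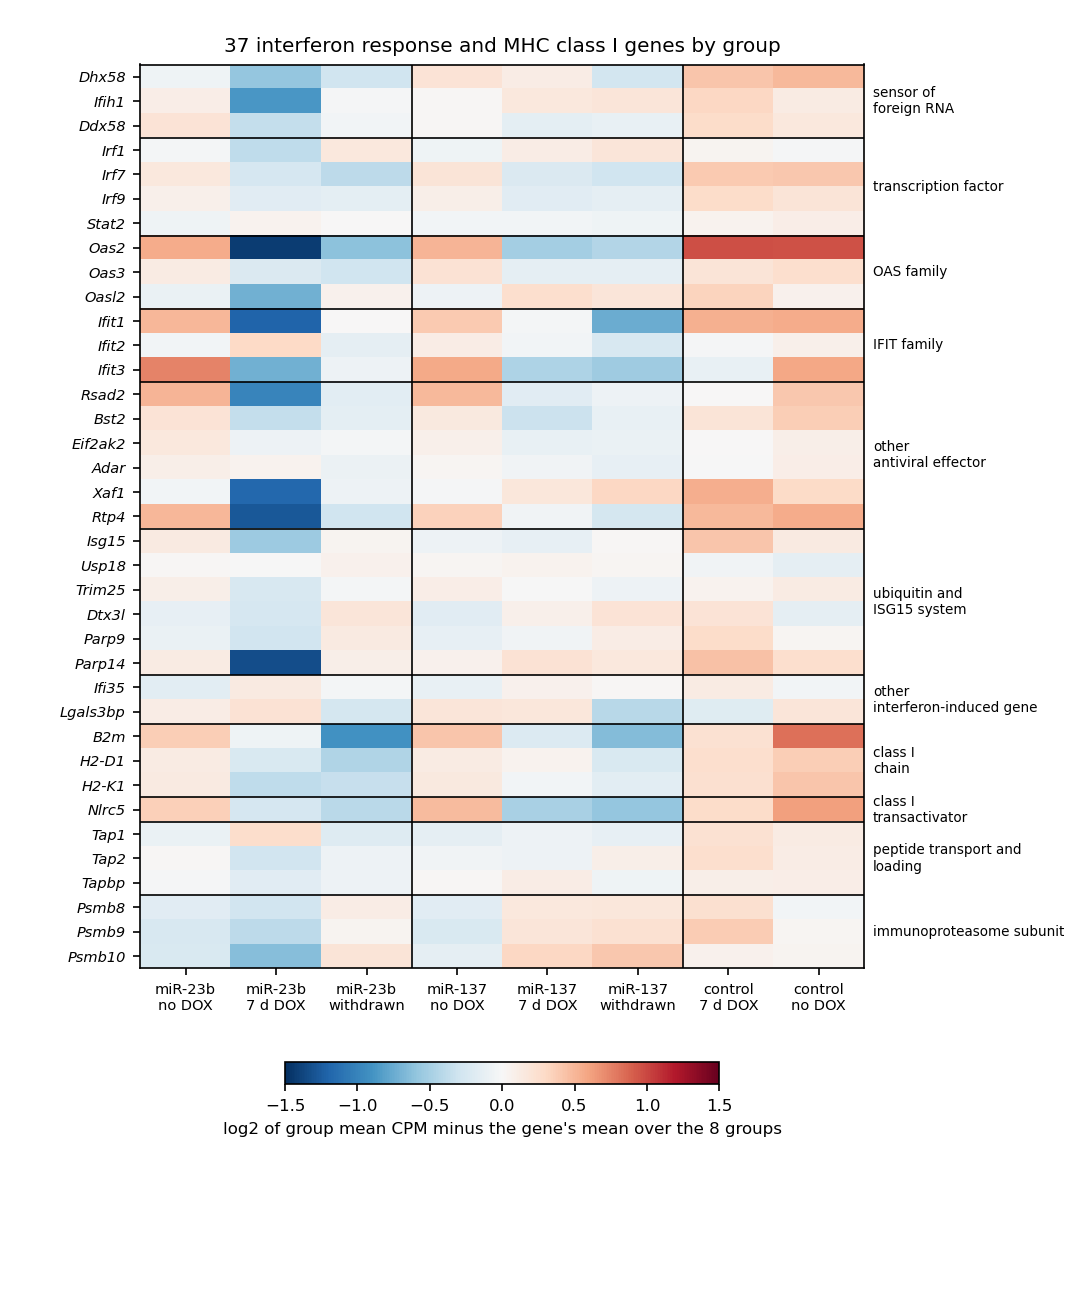
Group means (n = 3 libraries) of the 37 tested genes, as log2 CPM minus the mean of the gene over the 8 groups, with genes grouped by role and groups in columns. Values run from -1.43 to 0.96, and the column of the miR-23b line with DOX holds the lowest value of 23 genes. The matching share of all tested genes was not counted.

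The ligands of the pathway were scarcely counted. Of 9 interferon genes, 7 (among them Ifnb1, Ifna1 and Ifnl2) had 0 counts in every library, which allows up to 0.00641 CPM of unscaled gene counts over the 24 libraries, for counting error only. The other genes were Ifna2, with 2 counts in all, and Ifng, with 6. Most receptor and signalling genes were present. Of 20 listed, 18 were tested, and with DOX in the miR-23b line 6 were higher and 5 lower, near the 28.8% and 28.6% of all tested genes. Ifngr2, a subunit of the interferon gamma receptor, was lower there by 0.80 on the log2 scale (SE 0.06) and Ifnar2, a subunit of the type I interferon receptor, was higher by 0.45 (SE 0.10).

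In the miR-23b line, 7 d of DOX was set against no DOX to ask how the genes respond when the cluster is on. Of the 37 genes, 27 were lower and 4 higher at an adjusted p below 0.05, while 28.6% of all tested genes were lower and 28.8% higher. The lower share of the set was 73% and the higher share 10.8%. The median log2 fold change was -0.36 for the set and 0.01 for all tested genes. On the log2(TPM + 1) scale, where 67.0% of all calls were higher against 50.2% in edgeR, 22 of the 37 were lower. Summed over the 38 genes, the level was 1214, 1183 and 1209 CPM in the libraries with DOX, against 1346, 1425 and 1411 CPM in those without. The groups did not overlap. After withdrawal the sum was 1208, 1230 and 1218 CPM. In the control line it was 1475, 1473 and 1459 CPM with DOX and 1506, 1541 and 1554 CPM without, also with no overlap. By TPM the sum in the miR-23b line averaged 809 ± 17.4 with DOX and 858 ± 34.5 without (SD, n = 3 each).

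**Figure D2:**
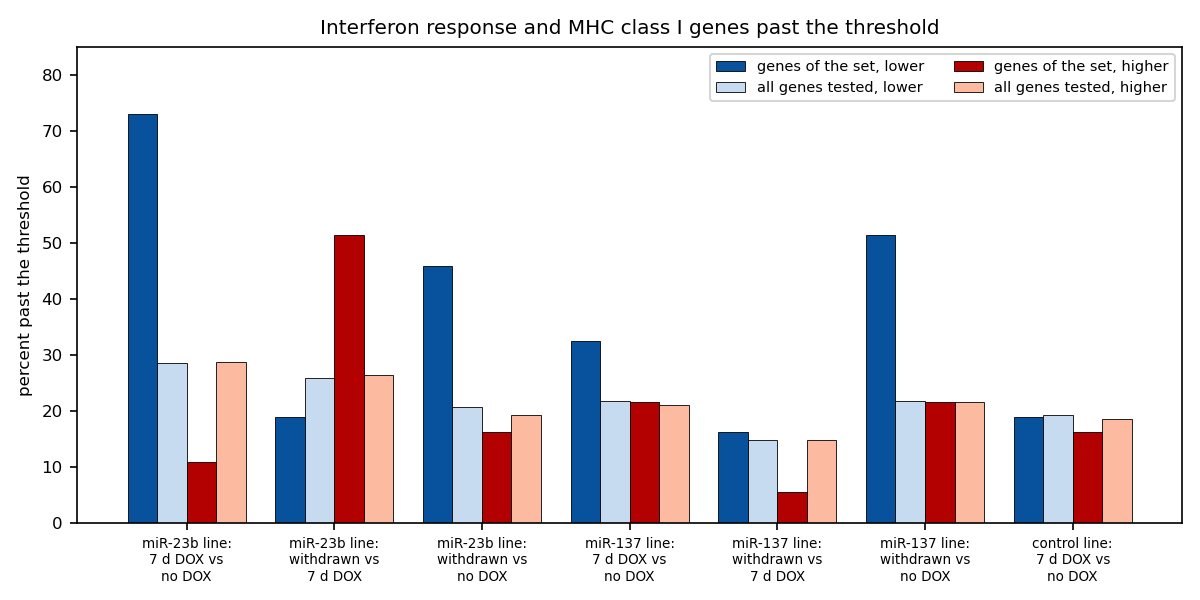
Percent of the 37 genes and of all 14866 tested genes that were lower or higher at an adjusted p below 0.05, in 7 comparisons within a line. In the miR-23b line with DOX 73% of the set were lower, against 28.6% of all genes, and in the control line with DOX 18.9% of the set were lower, against 19.3% of all genes.

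The largest falls were in genes of antiviral effectors. Oas2, whose enzyme makes the 2-5A messenger that activates RNase L, had 4.27, 6.25 and 6.18 CPM without DOX, 1.51, 1.48 and 1.23 CPM with DOX and 2.90, 2.36 and 2.16 CPM after withdrawal. With DOX it was 3.95-fold lower than without (log2 fold change -1.98, SE 0.18, adjusted p = 3.69e-12). All libraries with DOX lay below all other libraries of the line. Rtp4, a receptor transporter gene induced by interferon, had 7.95, 7.79 and 7.38 CPM without DOX, 2.42, 2.09 and 2.28 CPM with DOX and 4.27, 4.71 and 4.33 CPM after withdrawal. Its fall with DOX was 3.40-fold (log2 fold change -1.77, SE 0.14, adjusted p = 7.49e-14), and again no libraries overlapped. Rtp4 shares 39791 bases with the annotated gene Gm45338 on the same strand, so reads there may be ambiguous. Rsad2, the gene of viperin, had 7.37, 8.58 and 8.41 CPM without DOX, 2.83, 2.31 and 3.52 CPM with DOX and 4.64, 5.52 and 5.15 CPM after withdrawal, and fell by 1.53 on the log2 scale with DOX (SE 0.13, adjusted p = 2.62e-13).

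Parp14, an ADP-ribosyltransferase gene, was also lower with DOX. It had 13.1, 17.3 and 14.0 CPM without DOX, 5.43, 4.66 and 6.11 CPM with DOX and 14.5, 14.8 and 14.1 CPM after withdrawal. The fall with DOX was 1.49 on the log2 scale (SE 0.11, adjusted p = 1.34e-14), and the withdrawn libraries lay within the range of those never given DOX. Parp14 shares 1773 bases with the annotated gene Gm49730 on the same strand, so reads there may be ambiguous. Ifih1, the gene of the RNA sensor MDA5, had 9.70, 10.2 and 9.44 CPM without DOX, 4.93, 4.84 and 5.18 CPM with DOX and 8.81, 8.55 and 9.73 CPM after withdrawal (log2 fold change with DOX -0.98, SE 0.11). Xaf1, a pro-apoptotic gene, had 6.08, 5.27 and 6.69 CPM without DOX, 2.19, 2.62 and 3.39 CPM with DOX and 5.96, 5.83 and 5.73 CPM after withdrawal (log2 fold change with DOX -1.16, SE 0.15). In both genes the libraries with DOX lay below all libraries without it. On the scale of log2(TPM + 1), which understates changes of such low genes, the values with DOX were -0.98 for Oas2, -0.94 for Rtp4, -1.07 for Rsad2, -0.68 for Parp14, -0.56 for Ifih1 and -0.62 for Xaf1, all past the threshold.

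**Figure D3:**
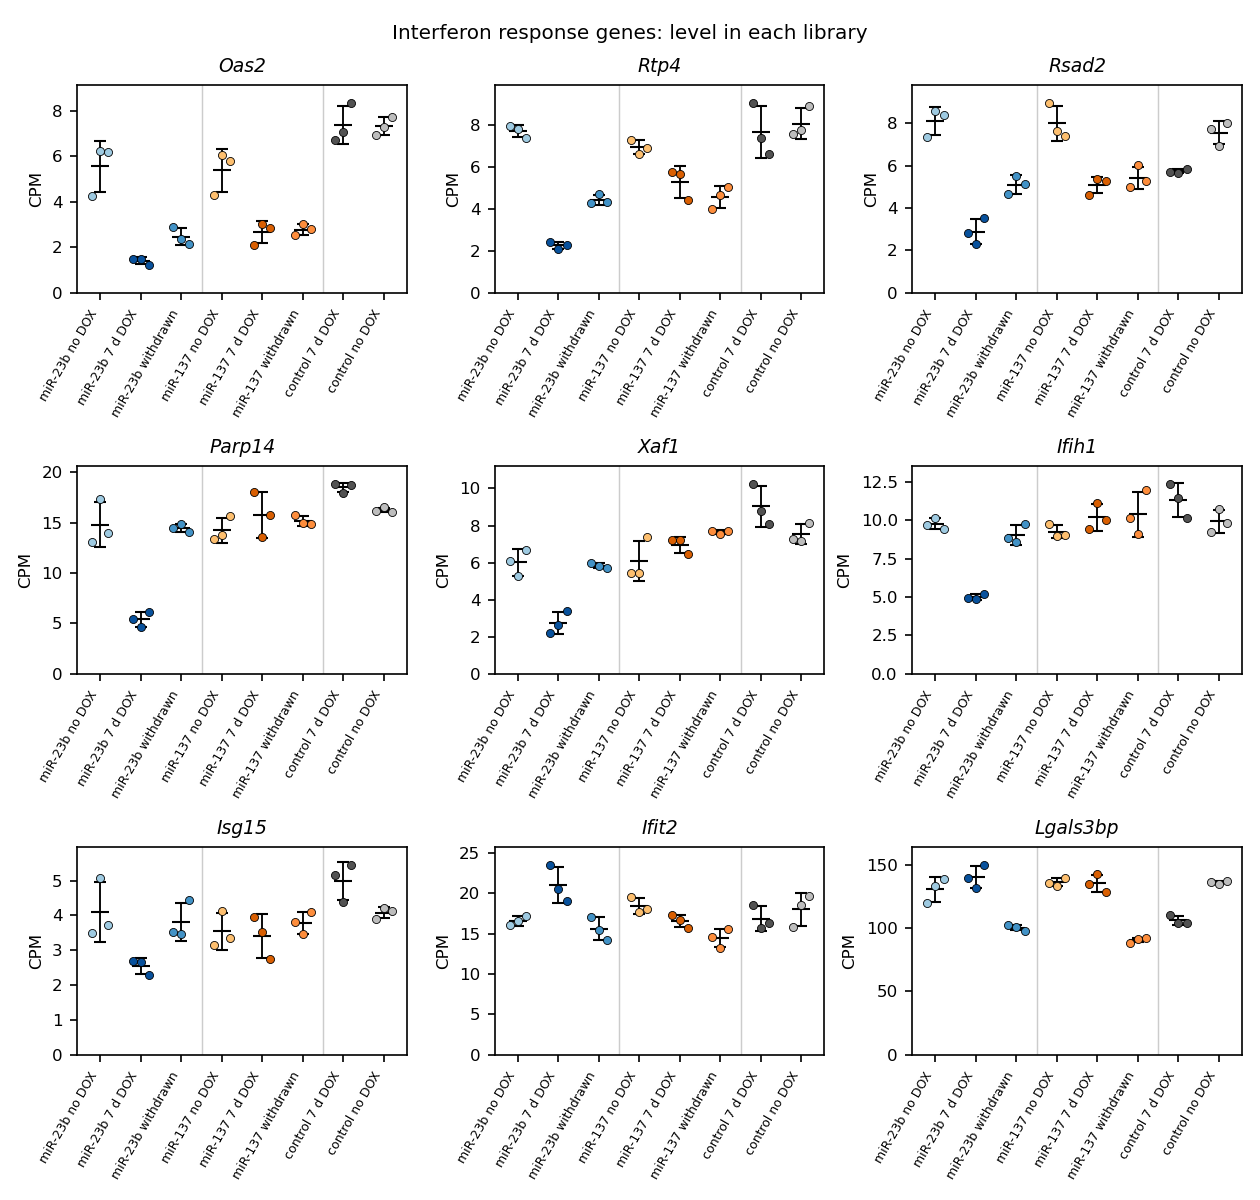
CPM of 9 interferon response genes in each library (points), with mean and SD (n = 3), for the 3 conditions of the miR-23b and miR-137 lines and for the control line. Oas2, Rtp4, Rsad2, Parp14, Xaf1 and Ifih1 are lowest in DOX-treated miR-23b cells, and Ifit2 is highest there, at 21.0 CPM.

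Within gene families the direction was not uniform. The 3 OAS family genes were lower with DOX, Oasl2 by 0.63 on the log2 scale (SE 0.10) and Oas3 by 0.36 (SE 0.12) beside Oas2, the Oas3 call being lost without miR-23b no DOX replicate 2. Among the IFIT genes, whose proteins bind viral RNA, Ifit1 and Ifit3 were lower and Ifit2 higher. Ifit2 had 16.0, 16.5 and 17.2 CPM without DOX, 23.4, 20.5 and 19.0 CPM with DOX and 17.0, 15.5 and 14.3 CPM after withdrawal (log2 fold change with DOX 0.35, SE 0.08, adjusted p = 0.000436). Ifit1 averaged 0.253 ± 0.212 CPM with DOX and 0.816 ± 0.143 CPM without (SD, n = 3 each), and Ifit3 0.663 ± 0.177 and 1.83 ± 0.281 CPM, so these falls rest on few counts. Ifit3 has a near-identical neighbour, Ifit3b, and reads with several alignments (25.4% to 27.7% of those listed) were left out of the gene counts.

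The 3 sensor genes were lower, with Ddx58, the gene of RIG-I, at -0.56 (SE 0.07) and Dhx58, the gene of LGP2, at -0.51 (SE 0.16) on the log2 scale. The Dhx58 call was lost without miR-23b no DOX replicate 3 and without miR-23b DOX replicate 1. Of the 4 transcription factor genes Irf7 (-0.42, SE 0.13), Irf1 (-0.35, SE 0.05) and Irf9 (-0.24, SE 0.07) were lower, and Stat2 averaged 59.4 ± 2.46 CPM with DOX and 54.7 ± 4.44 CPM without and did not pass. The Irf7 call was lost without miR-23b no DOX replicate 3 and without miR-23b DOX replicate 2, and the Irf9 call on the TPM scale (highest adjusted p = 0.0634). In the ubiquitin and ISG15 system 4 of 6 were lower, among them Isg15, the gene of a ubiquitin-like modifier, with 2.69, 2.66 and 2.28 CPM with DOX against 3.49, 5.08 and 3.72 CPM without (log2 fold change -0.70, SE 0.16). Usp18, the gene of the ISG15 protease that restrains interferon signalling, averaged 39.4 ± 3.48 CPM with DOX and 40.0 ± 1.41 CPM without. Adar, an RNA editing enzyme gene, averaged 73.0 ± 2.78 CPM with DOX and 74.3 ± 2.82 CPM without. The kinase gene Eif2ak2 was lower by 0.23 (SE 0.05), yet its value on the log2(TPM + 1) scale was 0.02. Ifi35 was higher by 0.28 (SE 0.06), and Lgals3bp by 0.10 (SE 0.04) with overlapping libraries, a call lost in 7 of 14 alternatives, among them the fits without miR-23b no DOX replicates 1 and 2 and without miR-23b DOX replicates 1 and 3.

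Set against the control line's own response to DOX, 22 of 37 genes responded lower in the miR-23b line and 4 higher, while 19.4% of all tested genes responded lower and 18.1% higher. The median difference was -0.40 for the set and -0.01 for all genes. The difference was -1.99 for Oas2 (SE 0.22, adjusted p = 1.95e-09), -1.69 for Rtp4 (SE 0.18), -1.67 for Parp14 (SE 0.14), -1.41 for Xaf1 (SE 0.18) and -1.17 for Ifih1 (SE 0.14). In control cells none of these 5 genes passed the threshold. Their levels with DOX against no DOX were 6.71, 7.08 and 8.33 against 6.94, 7.31 and 7.73 CPM for Oas2, and 18.8, 18.0 and 18.7 against 16.2, 16.5 and 16.1 CPM for Parp14. The genes that responded higher were Lgals3bp (0.46, SE 0.06), Ifit2 (0.44, SE 0.12), Tap1 (0.25, SE 0.09) and B2m (0.17, SE 0.07, adjusted p = 0.0497). The B2m call was lost in 11 of 20 alternatives, among them DESeq2 (adjusted p = 0.0876) and the fits without control no DOX replicates 2 and 3, control DOX replicates 2 and 3, miR-23b no DOX replicates 1 and 3 and miR-23b DOX replicates 1 and 2 (highest adjusted p = 0.195). The Tap1 call was lost in 4 of 20, which are DESeq2 and the fits without control no DOX replicate 3, miR-23b no DOX replicate 1 and miR-23b DOX replicate 1 (highest adjusted p = 0.0845). On the log2(TPM + 1) scale 69.9% of all calls were higher, against 48.3% in edgeR, and 15 of the 37 genes responded lower.

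**Figure D4:**
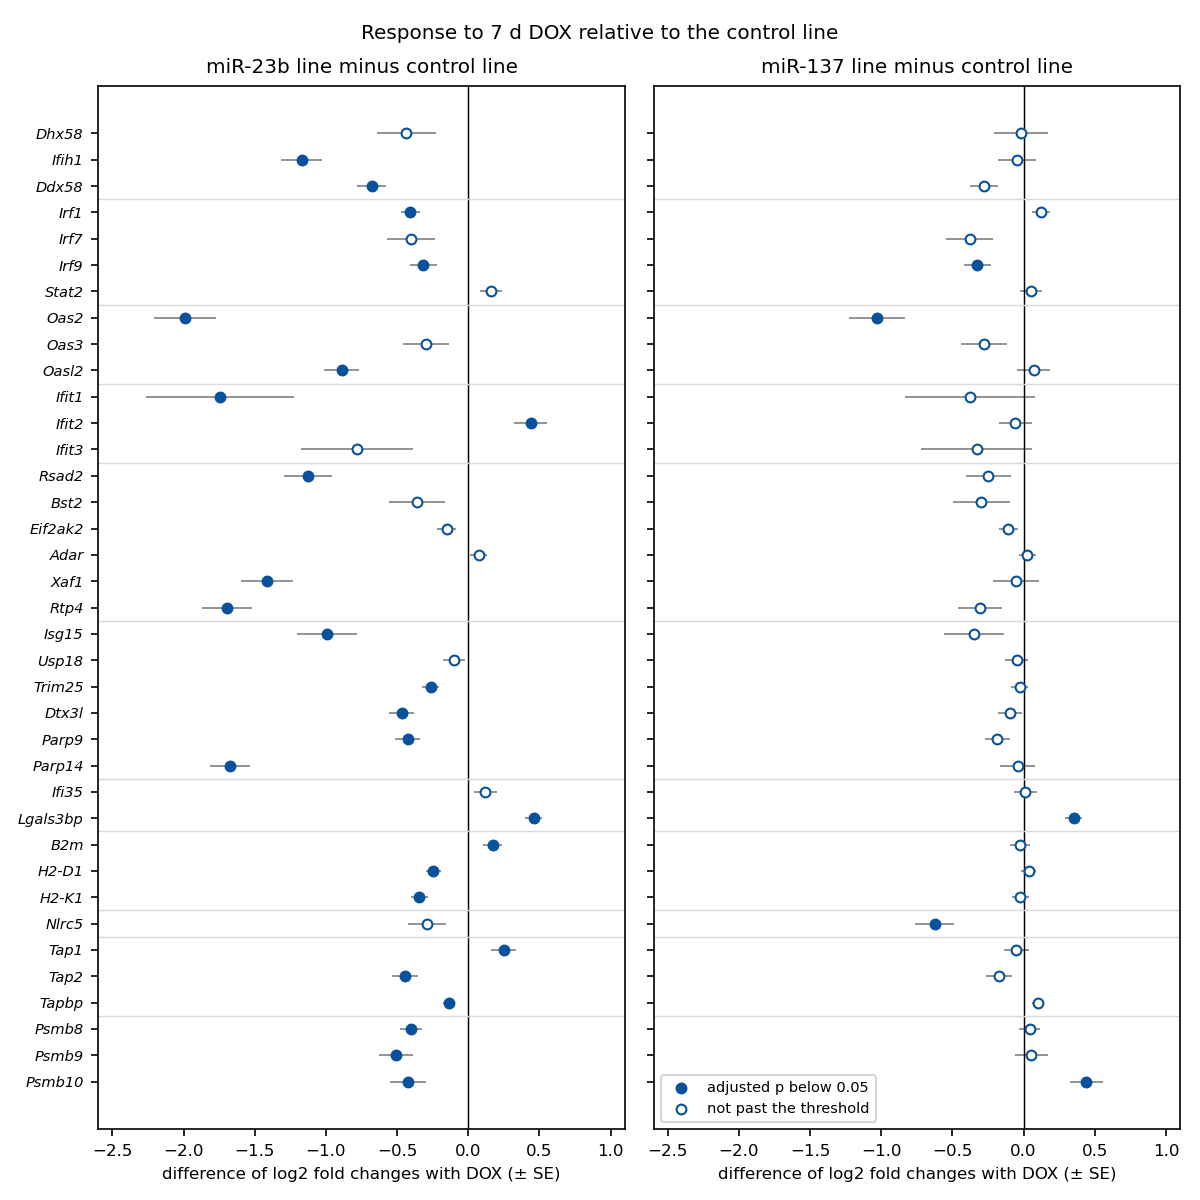
Difference between the response to 7 d of DOX of a miRNA line and that of the control line, on the log2 scale with SE (3 libraries per group), for 37 genes. Filled points passed an adjusted p of 0.05, which 26 genes did for the miR-23b line and 5 for the miR-137 line. Of all 14866 tested genes 5583 and 1588 did.

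The 3 class I chain genes and Nlrc5 were lower with DOX in the miR-23b line. They were also lower with DOX in the control line, B2m (-0.60, SE 0.05), Nlrc5 (-0.33, SE 0.09), H2-K1 (-0.17, SE 0.04) and H2-D1 (-0.11). The H2-D1 call in control cells was lost in 2 of 14 alternatives and reversed in 2. B2m, the gene of beta-2 microglobulin, had 61.3, 67.4 and 66.1 CPM without DOX, 49.5, 48.5 and 47.2 CPM with DOX and 28.8, 25.4 and 26.3 CPM after withdrawal in the miR-23b line. It was lower with DOX than without (log2 fold change -0.43, SE 0.05) and lower again after withdrawal than with DOX (-0.85, SE 0.06, adjusted p = 3.36e-15). The 3 conditions did not overlap. H2-D1 had 170, 179 and 174 CPM without DOX, 141, 132 and 137 CPM with DOX and 110, 120 and 122 CPM after withdrawal, which is -0.35 (SE 0.04) with DOX and a further -0.22 (SE 0.04) after it. H2-K1 had 102, 109 and 106 CPM without DOX, 73.5, 73.8 and 74.6 CPM with DOX and 75.9, 75.9 and 76.3 CPM after withdrawal. After withdrawal it was below no DOX, at a log2 fold change of -0.48 (SE 0.04) for withdrawn against never given DOX. The transactivator gene Nlrc5 had 10.1, 10.8 and 10.9 CPM without DOX, 6.35, 6.80 and 7.71 CPM with DOX and 6.23, 6.94 and 5.60 CPM after withdrawal, and withdrawn cells were also lower than those never given DOX (-0.76, SE 0.11).

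Genes of peptide supply took other courses. Tap1 had 19.1, 20.3 and 20.5 CPM without DOX, 27.4, 23.6 and 26.2 CPM with DOX and 17.4, 19.5 and 19.3 CPM after withdrawal, and so was higher with DOX (0.36, SE 0.06, adjusted p = 6.75e-06), whereas Tap2 (-0.31, SE 0.07) and Tapbp (-0.15, SE 0.03) were lower. The Tapbp call was lost on the log2(TPM + 1) scale (-0.02, adjusted p = 0.757). Tap1 and Psmb9 overlap by 212 bases on opposite strands, so reads there may be split between them. Tapbp shares 3422 bases with Zbtb22 on the same strand, where reads may be ambiguous. Psmb10 had 9.76, 9.93 and 9.33 CPM without DOX, 6.94, 7.93 and 6.85 CPM with DOX and 12.4, 12.8 and 13.6 CPM after withdrawal. Withdrawn cells were above both other conditions, by 0.82 over DOX (SE 0.09) and by 0.41 over no DOX (SE 0.09). Psmb8 and Psmb9 had log2 fold changes of -0.12 and -0.16 with DOX that did not pass, and were higher after withdrawal than without DOX (0.28, SE 0.05, and 0.26, SE 0.09). The Psmb9 rise was lost without miR-23b no DOX replicates 1 and 3 and without miR-23b withdrawn replicate 3. B2m lies within the span of Patl2 on the opposite strand, and the sources used here do not give the strand setting of the counting, which leaves its level less certain.

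**Figure D5:**
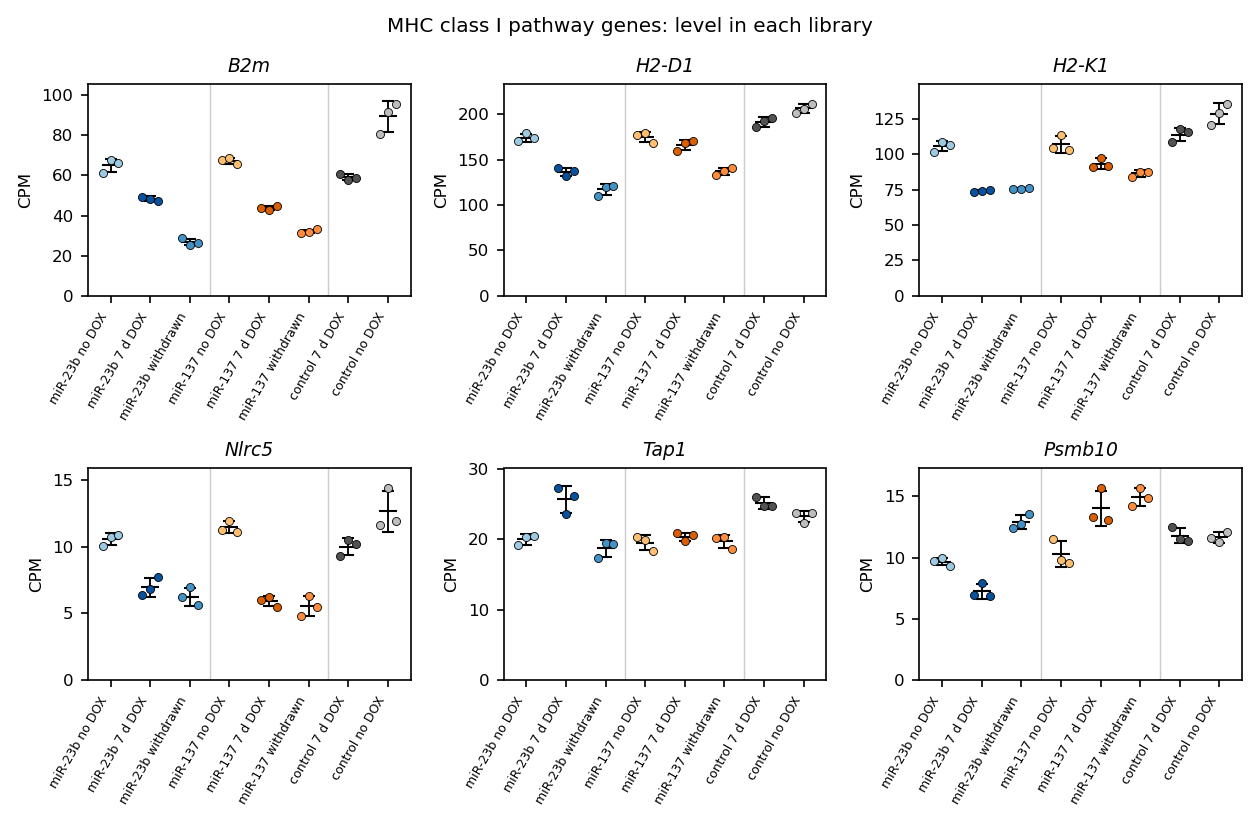
CPM of 6 MHC class I pathway genes in each library (points), with mean and SD (n = 3), for the same groups. B2m falls from no DOX over DOX to withdrawn in both miRNA lines, and falls with DOX in the control line as well. Tap1 is highest in the miR-23b line with DOX, at 25.7 CPM. For Tap1 the control line with DOX is close. As log2 CPM minus the gene's mean over the 8 groups, it is at 0.23, against 0.26 in the miR-23b line with DOX.

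Withdrawal of DOX in the miR-23b line was set against 7 d of DOX to ask which changes turn back. Of the 37 genes 19 were higher and 7 lower, while 26.4% of all tested genes were higher and 25.8% lower. The rises were led by Parp14 (1.44, SE 0.11, adjusted p = 1.11e-13), Xaf1 (1.13, SE 0.15), Rtp4 (0.97, SE 0.16), Ifih1 (0.86, SE 0.11) and Rsad2 (0.85, SE 0.14). In limma on log2(TPM + 1), where the median of all genes lay 0.11 lower (shift -0.11) and 27.8% of all calls were higher against 50.6% in edgeR, 12 of the 37 were higher. The falls after B2m were those of Lgals3bp (-0.48, SE 0.04), Tap1 (-0.46, SE 0.06) and Ifit2 (-0.43, SE 0.08). Tap1 and Ifit2 are genes that were higher with DOX.

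Withdrawn cells were also compared with cells never given DOX. Here 17 of 37 were lower and 6 higher, while 20.6% of all tested genes were lower and 19.2% higher, and the median was -0.14 for the set. Genes below their no DOX level after withdrawal included B2m (-1.28, SE 0.06, adjusted p = 2.23e-20), Oas2 (-1.18, SE 0.17), Ifit3 (-0.83, SE 0.27), Rtp4 (-0.80, SE 0.12), Nlrc5 and Rsad2 (-0.68, SE 0.12). The Ifit3 call was lost without miR-23b no DOX replicate 2 (adjusted p = 0.0898) and without miR-23b withdrawn replicate 3 (adjusted p = 0.0806). Genes whose difference did not pass included Parp14 (-0.05, SE 0.09), Xaf1 (-0.03, SE 0.13) and Ifih1 (-0.12, SE 0.10).

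In the miR-137 line with DOX, 12 of 37 genes were lower and 8 higher than without, while 21.8% of all tested genes were lower and 21% higher. The median was -0.07 for the set. Oas2 was lower here too, with 4.30, 6.05 and 5.80 CPM without DOX, 2.11, 3.02 and 2.86 CPM with DOX and 2.55, 3.01 and 2.79 CPM after withdrawal (log2 fold change with DOX -1.02, SE 0.16, adjusted p = 1.22e-06). Nlrc5 had 11.3, 12.0 and 11.1 CPM without DOX, 5.97, 6.23 and 5.48 CPM with DOX and 4.80, 6.33 and 5.46 CPM after withdrawal (-0.96, SE 0.10, adjusted p = 5.22e-10). Neither gene came back in the withdrawn libraries. B2m had 67.6, 68.6 and 65.5 CPM without DOX, 43.7, 42.5 and 44.8 CPM with DOX and 31.2, 31.8 and 33.1 CPM after withdrawal (-0.62, SE 0.05, with DOX). Rsad2 (-0.65, SE 0.11) and Ifit3 (-1.01, SE 0.28) were lower as well. The Ifit3 call was lost without miR-137 no DOX replicate 3 (-0.66, adjusted p = 0.0766).

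The immunoproteasome genes rose in the miR-137 line. Psmb10 had 11.5, 9.78 and 9.58 CPM without DOX, 13.3, 15.7 and 13.1 CPM with DOX and 14.3, 15.7 and 14.8 CPM after withdrawal (0.46, SE 0.08, with DOX). Psmb9 (0.41, SE 0.08) and Psmb8 (0.32, SE 0.05) were higher with DOX, as was Oasl2 (0.34, SE 0.08). Parp14, Xaf1 and Ifih1, all lower in the miR-23b line, had 15.8 ± 2.27, 6.95 ± 0.434 and 10.2 ± 0.863 CPM with DOX in the miR-137 line, against 14.3 ± 1.24, 6.09 ± 1.09 and 9.25 ± 0.444 CPM without (SD, n = 3 each). None of the 3 passed.

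Measured against the control line's response, few genes stood out in the miR-137 line. Of 37, 3 responded lower and 2 higher, while 4.78% of all tested genes responded lower and 5.9% higher, so both shares were near the background. They were Oas2 (-1.03, SE 0.20, adjusted p = 0.000394), Nlrc5 (-0.62, SE 0.14), Irf9 (-0.32, SE 0.10), Psmb10 (0.44, SE 0.12) and Lgals3bp (0.35, SE 0.06). Lgals3bp fell with DOX in control cells (-0.36, SE 0.04). In the miR-137 line its log2 CPM minus its mean over the 8 groups was 0.18 without DOX and 0.17 with DOX. The Irf9 call was lost in 7 of 20 alternatives, 5 of which leave out a library (control no DOX replicate 3, control DOX replicate 1, miR-137 no DOX replicate 3, miR-137 DOX replicates 1 and 3). The Psmb10 call was lost without miR-137 DOX replicate 2 (0.35, adjusted p = 0.0598). This difference and that of the miR-23b line use the same control libraries.

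After withdrawal in the miR-137 line, 6 of 37 genes were lower and 2 higher than with DOX, while 14.8% of all tested genes were lower and 14.7% higher. The falls included Lgals3bp (-0.58, SE 0.04), B2m (-0.44, SE 0.05), H2-D1 (-0.28, SE 0.04) and Tapbp (-0.17, SE 0.03). The rises, Parp9 (0.17, SE 0.06) and Tap2 (0.17, SE 0.06), were lost with DESeq2, which called 0 genes of the set higher, while edgeR had 3 higher at an unadjusted p below 0.05. Leaving out miR-137 DOX replicate 1 or 2, or miR-137 withdrawn replicate 1 or 3, also ended the Parp9 call, and leaving out any of the 6 libraries ended the Tap2 call. Against cells never given DOX, 19 of 37 withdrawn genes were lower and 8 higher, while 21.7% of all tested genes were lower and 21.6% higher. On the log2(TPM + 1) scale 39.5% of all calls were higher, against 49.9% in edgeR. B2m (-1.07, SE 0.05), Nlrc5 (-1.06, SE 0.10), Ifit3 (-1.08, SE 0.27) and Oas2 (-0.96, SE 0.15) were among the lower, and Psmb10 (0.54, SE 0.08), Psmb9 (0.45, SE 0.08) and Dtx3l (0.38, SE 0.06) among the higher.

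The responses of both miRNA lines to DOX were compared directly. Of 37 genes, 21 responded lower in the miR-23b line than in the miR-137 line and 3 higher, while 18.4% of all tested genes responded lower and 16.8% higher. Between the lines the log2 difference was -1.63 for Parp14 (SE 0.14, adjusted p = 8.03e-12), -1.39 for Rtp4 (SE 0.19), -1.36 for Xaf1 (SE 0.19), -1.12 for Ifih1 (SE 0.15) and -0.96 for Oas2 (SE 0.25). In limma on log2(TPM + 1) the Oas2 difference was -0.32 and was lost (adjusted p = 0.104), and 11 of the 37 responded lower and 6 higher. On that scale 73.9% of all calls were higher, against 47.7% in edgeR, and the median of all genes lay 0.11 higher. Immunoproteasome genes differed too, Psmb10 by -0.87 (SE 0.13), Psmb9 by -0.56 (SE 0.12) and Psmb8 by -0.44 (SE 0.07). Ifit2 (0.49, SE 0.12), Tap1 (0.30, SE 0.09) and B2m (0.20, SE 0.07) responded higher in the miR-23b line, the last call being lost in 5 of 20 alternatives. These are DESeq2 (adjusted p = 0.0521) and the fits without miR-23b no DOX replicate 1, miR-23b DOX replicate 1, miR-137 no DOX replicate 2 and miR-137 DOX replicate 2.

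In control cells DOX itself went with small changes in both directions. Of 37 genes 7 were lower and 6 higher with DOX, while 19.3% of all tested genes were lower and 18.5% higher, so both shares were near the background. B2m was the clearest, with 60.6, 57.8 and 58.8 CPM with DOX against 80.8, 91.8 and 95.7 CPM without (-0.60, SE 0.05, adjusted p = 3.7e-13). Rsad2 (-0.40, SE 0.11), Lgals3bp (-0.36, SE 0.04) and Nlrc5 (-0.33, SE 0.09) were lower as well, Nlrc5 not without control no DOX replicate 2 (-0.24, adjusted p = 0.0545). Psmb9 (0.35, SE 0.08), Dtx3l (0.34, SE 0.06) and Psmb8 (0.28, SE 0.05) were higher. B2m, H2-K1, Nlrc5, Rsad2 and Ifit3 were lower and Ifi35 higher with DOX in each of the 3 lines. In control cells the Ifit3 call was lost in 5 of 14 alternatives (DESeq2 and the fits without control no DOX replicates 2 and 3 or control DOX replicates 2 and 3) and the Ifi35 call in 4 of 14 (no low count filter and the fits without control no DOX replicates 2 and 3 or control DOX replicate 1). The Ifi35 call in the miR-137 line was lost without miR-137 DOX replicate 3 and on the TPM scale, and the H2-K1 call in the miR-137 line was lost on the TPM scale (adjusted p = 0.0642).

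Before any DOX, the 3 class I chain genes and Tap1 were lower in both miRNA lines than in the control line, while the 3 immunoproteasome genes and Nlrc5 did not pass in either. In the miR-23b line 6 of 37 genes were lower and 0 higher, while 2.78% of all tested genes were lower and 3.59% higher. In the miR-137 line 4 were lower and 0 higher, while 0.814% of all tested genes were lower and 1.89% higher. At an unadjusted p below 0.05 edgeR had 1 of the 37 higher in each line, and DESeq2 called 0 higher after adjustment in each. In limma on log2(TPM + 1) 1 was higher in the miR-23b line and 2 were lower in the miR-137 line, and over all genes the share of calls that were higher was 33.7% on that scale in the miR-23b line, against 56.3% in edgeR. B2m was lower by 0.46 in the miR-23b line (SE 0.05) and by 0.41 in the miR-137 line (SE 0.05). H2-K1 had log2 differences of -0.28 and -0.26 (SE 0.04 each), H2-D1 of -0.24 in each (SE 0.04) and Tap1 of -0.22 and -0.26 (SE 0.06 each). These comparisons share the control no DOX libraries, and the Tap1 calls were lost in 8 and 5 of 14 alternatives. These include the fits without control no DOX replicates 1 and 3 in each line, without each miR-23b no DOX replicate, and without miR-137 no DOX replicate 3. The H2-D1 call in the miR-137 line was lost on the TPM scale (adjusted p = 0.0684), and Dhx58 (-0.56, SE 0.14) was lower in the miR-23b line except in 4 of the 13 alternatives that gave it an adjusted p, which include the fits without control no DOX replicate 3 and without miR-23b no DOX replicate 2.

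A wider list of 169 matched genes of the same pathways, none of them in the set, was also chosen with earlier results of these data known. It was read in the same fit, and 123 were tested. With DOX in the miR-23b line 50 were lower and 25 higher, beside 28.6% and 28.8% of all tested genes. Against the control line's response 42 were lower and 12 higher, beside 19.4% and 18.1% of all tested genes, with a median difference of -0.12. The share of lower calls was largest among other class I heavy chain genes, with 7 of 12 tested lower and 0 higher, led by H2-T23 (-1.19, SE 0.21). Other interferon-induced genes had 21 of 55 lower and 3 higher, led by the guanylate-binding protein gene Gbp3 among those above 1 CPM (-1.99, SE 0.34). The loading and proteasome genes had 7 of 20 lower and 2 higher, led by the peptide trimming enzyme gene Erap1 (-0.63, SE 0.06) and the class I regulator gene Rfx5 (0.63, SE 0.07). Genes of nucleic acid sensing had 4 of 17 lower and 2 higher, and receptor and JAK-STAT genes 3 of 18 lower and 5 higher, both with a lower share near that of all genes. In the miR-137 line 8 of 123 responded lower than in the control line and 1 higher, beside 4.78% and 5.9% of all tested genes. Heavy chain genes share sequence, so their values are less certain. Of 7 MHC class II genes, which are typical of professional antigen presenting cells, H2-DMa was the one tested, and Ciita had 24 counts over all libraries.

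The sequence features named above were set beside the changes as a description. With DOX in the miR-23b line, 10 of 11 tested genes with the response element core were lower and 0 higher, with a median of -0.56, and 10 of 18 tested genes with a promoter but no core were lower and 4 higher, with a median of -0.20. Among those with the core, Stat2 was the gene that was not lower. Of the 8 tested genes without an available promoter, 7 were lower and 0 higher, with a median of -0.57. In the miR-137 line 6 of the 11 were lower and 0 higher, and 3 of the 18 lower and 8 higher, and in the control line 3 of the 11 were lower and 0 higher, and 3 of the 18 lower and 5 higher. Of all tested genes 21.8% were lower and 21% higher in the miR-137 line, and 19.3% lower and 18.5% higher in the control line, so several of these counts are near the background. Against the control line's response, 5 of the 11 with the core responded lower in the miR-23b line and 1 higher, with a median of -0.68. Of the 18 without it, 12 responded lower and 3 higher, with a median of -0.33. Of the 8 without an available promoter, 5 responded lower and 0 higher. Of all tested genes 19.4% responded lower and 18.1% higher. Of 10 genes with a 3' UTR match for miR-27b-3p or miR-24-3p (27.0% of the set, against 35.0% of all tested genes), 8 responded lower than in the control line and 0 higher, with a median of -0.95. Of the 27 genes without such a match 14 responded lower and 4 higher, with a median of -0.34. Over all tested genes 23.1% with a match responded lower and 21.0% higher, against 19.5% and 19.2% without, with medians of -0.01 and 0.00. The 3' UTRs with a match were longer, at a median of 2316 bases against 968. Since miR-23b-3p was not searched, genes counted as without a match may hold one for it. Of the 3 genes with a miR-137-3p match, B2m, Dtx3l and Rsad2, 0 passed the threshold in the difference between the miR-137 line and the control line. Over all tested genes 15.6% with that match responded lower and 3.2% higher, against 3.98% and 6.92% without, with medians of -0.07 and 0.00.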

How the data were processed

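The authors deposited whole-number read counts per gene and TPM values (length-scaled transcript abundance) for the same 24 libraries of TruSeq stranded mRNA. Per the submitters' processing notes the tools included featureCounts, RSEM 1.2.19, STAR 2.4.0g, cutadapt 1.3 and HTSeq 0.6.1, on mouse build GRCm38. The notes do not say which tool made which table, and the strand setting was not given in these sources. Libraries held 15759849 to 24144737 gene counts, so 3 counts correspond to 0.124 to 0.190 CPM per library, for counting error only. Rows that name no gene were left out of library sizes, and 9.62% to 12.1% of listed reads fell in no feature, 25.4% to 27.7% were not unique and 0.741% to 0.779% were ambiguous. Groups came from the sample labels.

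Counts were filtered with filterByExpr, scaled by TMM and fitted with edgeR 4.0.16 (quasi-likelihood test, 24 libraries, 8 group means, R 4.3.3), with Benjamini-Hochberg adjustment over 14866 genes and a threshold of 0.05. SE was taken as the size of the log2 fold change over the root of the F statistic. TPM alternatives used limma 3.58.1 on log2(TPM + 1) and log2(TPM + 0.1), and DESeq2 1.42.0 was a further alternative. The test was checked on simulated data. Any of the 38 genes may be named, and per comparison the rule put first up to 5 called genes in each direction with the largest change, a mean of at least 1 CPM in a group and no overlap between libraries. DESeq2 results with no adjusted p were left out. Members, lists and rule were chosen with earlier results of these data known. Promoters and miRNAs came from RefSeq (GRCm38.p6), 3' UTRs from GENCODE M21. The result of 1 gene of the wider pathway list is not reported here.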

Additional observations from a re-analysis of the deposited data

Results flagged for a closer look

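Differences between responses to DOX that passed the test of the difference itself (edgeR, adjusted p below 0.05) numbered 26 of 37 for the miR-23b line against the control line, 5 for the miR-137 line against the control line and 24 for the miR-23b line against the miR-137 line. Of all tested genes 19.4% responded lower and 18.1% higher in the first comparison, 4.78% and 5.9% in the second, and 18.4% and 16.8% in the third. The 5 of the second comparison were thus near the background. Given here are 22 of the differences in the set, at most 5 per direction and comparison, by the naming rule. Between the miR-23b line and the control line these include Lgals3bp (0.46), Ifit2 (0.44), Tap1 (0.25), B2m (0.17), Oas2 (-1.99), Rtp4 (-1.69), Parp14 (-1.67), Xaf1 (-1.41) and Ifih1 (-1.17), on the log2 scale. Between the miR-137 line and the control line they were Psmb10 (0.44), Lgals3bp (0.35), Oas2 (-1.03), Nlrc5 (-0.62) and Irf9 (-0.32). Between the miR-23b line and the miR-137 line they include Ifit2 (0.49), Tap1 (0.30), B2m (0.20), Parp14 (-1.63), Rtp4 (-1.39), Xaf1 (-1.36), Ifih1 (-1.12) and Oas2 (-0.96). The comparisons share libraries, the first 2 the control libraries and the third those of both miRNA lines.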

How the results depend on the processing

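Of 6860 values of single genes under the alternatives, 6510 kept their side of the threshold, and those called also kept their direction. A further 246 lost the call, 96 gained it, and 8 with a call in the main fit or the alternative reversed. A change of direction in a value called in neither fit was not counted as a reversal. Only the 3306 values that belong to the 213 calls of the main fit could lose a call. The reversals were all on the TPM scale with pseudocounts 1 and 0.1, Eif2ak2 with DOX in the miR-23b line (0.017 and 0.018) and after its withdrawal (-0.17 and -0.18), H2-D1 with DOX in control cells (0.011 and 0.011) and Tapbp after withdrawal in the miR-23b line (-0.0051 and -0.0051). The cause was not tested. On the TPM scale the higher calls were 5 (both pseudocounts) against 8 with DOX in the miR-137 line, 12 (pseudocount 1) against 19 after withdrawal in the miR-23b line, 1 against 0 in the miR-23b line before DOX, and 6 against 3 between the responses of both miRNA lines. Lower calls there were 11 and 12 against 21, and 2 against 4 in the miR-137 line before DOX. After withdrawal in the miR-137 line the higher calls were 0 with DESeq2 and 1 with no low count filter or on the TPM scale, against 2. Between the miR-23b and control responses they were 2 with DESeq2, against 4. Leaving out 1 library gave 0 to 2 higher calls after withdrawal in the miR-137 line, 1 to 2 for the miR-137 and 2 to 4 for the miR-23b response against control, and 25 to 27 lower calls with DOX in the miR-23b line. With the replicate number as a block, 431 of 444 values were unchanged in call, 1 lost it and 12 gained it. Of 84 pairs of same-numbered libraries from different groups, 3 had a correlation over 0.1 (range -0.066 to 0.183, median 0.027). Of 168 pairs with other numbers 0 did (highest 0.088, median -0.014), so same-numbered libraries were slightly more alike. Whether this reflects a pairing was not tested. Genes below about 1 CPM, such as Ifit1 and Ifit3, are limited by depth.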
